A study of Mus musculus with 18 samples.

Results

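The insulin-like growth factor (IGF) system of the mouse thyroid is described here across genotype and diet. Its members are the ligands Igf1 and Igf2, the receptors Igf1r and Igf2r, and the binding proteins Igfbp2, Igfbp3, Igfbp4, Igfbp5, Igfbp6 and Igfbp7. They were found through the accession that the array gives for each probe: 15 of the 41174 probes belonged to 9 of the 10 members, among 19096 genes with a probe, and Igfbp6 had no matched probe. Igf1r had 3 probes, Igf1, Igf2, Igfbp4 and Igfbp5 had 2 each, and the other members had 1.

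Thyroids of C57BL/6 mice, 1 month old, were profiled on 18 single-colour Agilent arrays. There were 5 Glis3KO2 and 5 wild-type (WT) mice on the NIH31 normal diet, and 4 Glis3KO2 and 4 WT mice after 6 days on a low-iodine diet, which withholds the substrate of thyroid hormone. By their name in the labels, Glis3KO2 mice are a knockout of Glis3, a zinc finger transcription factor. The part of the gene removed, the tissues in which it is removed and the sex of the mice are not given in the sources used here. The series asks what Glis3 does in thyroid hormone production.

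IGF1 and IGF2 are secreted peptides that signal for growth and survival through the receptor tyrosine kinase IGF1R, which passes the signal to the insulin receptor substrates, phosphatidylinositol 3-kinase and Akt. IGF2R binds IGF2 and carries it to lysosomes, and the binding proteins hold the ligands outside cells, some of them until a protease releases the ligand. In thyroid follicular cells, IGF1 and insulin act together with thyrotropin (TSH) on growth.

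Every level below is the log2 of a probe's processed signal minus the 75th percentile of its array, so 0 means as bright as that percentile, and levels are compared between groups only within a probe. The brightest probe stands for a gene in the test over all genes. On the low-iodine diet 2 of the 9 measured members passed the test between genotypes: Igf1 was lower and Igf1r higher in Glis3KO2 thyroids, where 15% of all genes passed. No member did on the normal diet, where 1.39% of all genes passed. The threshold is an adjusted p under 0.05 in limma, with the Benjamini-Hochberg adjustment over all 17928 genes tested, and whether samples of a group came from separate litters is not given in the labels, so p-values measure the spread between these samples.

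The arrays of the 2 diets formed separate sets, with their own slides, scanner model and software release, so a diet effect cannot be told apart from a difference between these sets. Each of the 5 slides held both genotypes in equal numbers. The share of spots well above background ran from 60.1% to 90.6%, and arrays of 1 group correlated at 0.944 to 0.988 over genes. The array of WT replicate 2 on the low-iodine diet stood apart in brightness, with a median processed signal of 191.5 against 61.6 to 85.5 on the other arrays of that diet. Of 8 markers of thyroid follicular cells 7 were measured, and these were well above background on every array. The single probe for Glis3 averaged -2.60 ± 1.15 in Glis3KO2 and -1.24 ± 0.36 in WT on the low-iodine diet (SD, n = 4 each; adjusted p = 0.0619), and -4.89 ± 0.59 in Glis3KO2 and -5.34 ± 0.56 in WT on the normal diet (n = 5 each; adjusted p = 0.732). Where that probe lies relative to the deletion is not known, so it does not check the labels.

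Sequence just upstream of the start is shown for 4 members: Igf1 and Igf1r, the 2 that passed the test on the low-iodine diet, and Igf2 and Igfbp3, the only ones with the letters TGGGGGGT, the G-rich core of the site known for Glis proteins. Each is the 250 bases before a RefSeq start of the GRCm38.p6 table, 5′ to 3′ on the strand of the gene, and capitals mark the motif on either strand. The starts of Igf1, Igf2 and Igfbp3 lie 2846, 9320 and 1575 bases inside the outer end of the gene model.
Igf1, chr10:87860861-87861110, plus strand: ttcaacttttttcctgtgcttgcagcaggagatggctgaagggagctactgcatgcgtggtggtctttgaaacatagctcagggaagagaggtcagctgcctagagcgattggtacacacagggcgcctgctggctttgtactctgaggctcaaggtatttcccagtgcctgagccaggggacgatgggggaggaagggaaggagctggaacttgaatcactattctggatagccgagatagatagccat
Igf1r, chr7:67952007-67952256, plus strand: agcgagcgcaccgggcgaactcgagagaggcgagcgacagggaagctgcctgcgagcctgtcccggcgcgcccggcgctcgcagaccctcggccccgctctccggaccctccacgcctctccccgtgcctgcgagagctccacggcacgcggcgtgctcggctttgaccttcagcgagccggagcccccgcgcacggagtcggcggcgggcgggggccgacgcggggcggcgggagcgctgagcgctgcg
Igf2, chr7:142657497-142657746, minus strand: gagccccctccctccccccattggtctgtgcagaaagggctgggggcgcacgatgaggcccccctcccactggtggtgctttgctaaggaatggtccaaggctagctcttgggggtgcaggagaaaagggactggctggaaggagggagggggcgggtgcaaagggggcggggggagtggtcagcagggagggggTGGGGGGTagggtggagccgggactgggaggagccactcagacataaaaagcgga
Igfbp3, chr11:7213924-7214173, minus strand: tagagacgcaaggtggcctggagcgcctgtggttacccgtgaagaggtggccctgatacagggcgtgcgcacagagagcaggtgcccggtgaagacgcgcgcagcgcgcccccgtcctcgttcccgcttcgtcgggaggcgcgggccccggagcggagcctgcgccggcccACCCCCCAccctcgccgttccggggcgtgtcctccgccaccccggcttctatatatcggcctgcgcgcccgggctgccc
The Igf1 stretch was 52.8% G and C with 5 CpG, and the Igf1r stretch was 77.6% with 42 CpG. Counted to the motif base nearest the start, the motif of Igf2 lay 48 bases before the start, on the strand of the gene, and that of Igfbp3 lay 72 bases before it, in reverse complement. Both strands were searched for this motif alone, and it overlaps no other motif searched. All 10 members were in the table, with 14 stretches, of which 2 held it, and 446 of all 32851 stretches of the table (1.36%) did. A match is a description of letters and not a binding site, and no match says only that the letters are not in this window. Neither Igf2 nor Igfbp3 passed the test between genotypes on either diet.

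Igf1 was the ligand that differed. On the low-iodine diet its level was 1.90, 1.24, 2.17 and 1.57 on the 4 Glis3KO2 arrays, against 2.56, 2.35, 2.94 and 2.92 on the 4 WT arrays. The genotypes did not overlap, and Glis3KO2 replicate 2 was the lowest array. The mean was 1.72 ± 0.40 in Glis3KO2 and 2.69 ± 0.29 in WT (SD, n = 4 each), a difference of -0.97 ± 0.24 (SE) on the log2 scale, or 1.96-fold lower (adjusted p = 0.0129). In whole tissue, fewer cells of a type and less RNA per cell cannot be told apart. On slides 4 and 5 taken singly, with 2 arrays of each genotype, the differences were -0.72 and -1.22. Without the bright WT array the difference was -1.09 (adjusted p = 0.012), and the number of members that passed was 2 with and without it.

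The second Igf1 probe had the same sign and did not pass. It read -0.65, -1.48, -0.70 and -1.31 in Glis3KO2, against -0.19, -0.83, -0.35 and 0.04 in WT, where replicate 2 lay among the Glis3KO2 arrays. Its difference was -0.70 ± 0.37 (SE; adjusted p = 0.245). With the mean of both probes in place of the brighter one, the adjusted p of Igf1 was 0.0581, and with arrays scaled on their median it was 0.126.

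Igf1 showed no difference that passed the test on the normal diet. The Glis3KO2 arrays read 1.72, 1.74, 1.75, 1.87 and 2.38, and the WT arrays 2.36, 2.40, 1.78, 1.90 and 1.45. The WT arrays spanned the whole Glis3KO2 range, and the difference was -0.09 ± 0.22 (SE; adjusted p = 0.926), with a 95% interval of -0.55 to 0.37. The second probe gave 0.26 ± 0.33 (SE; adjusted p = 0.844). The sign of the first varied between slides, at -0.62, -0.28 and 0.37 on slides 1, 2 and 3. The genotype difference was 0.89 lower on low iodine than on the normal diet, at -0.89 ± 0.33 (SE), and this interaction did not pass (adjusted p = 0.218).

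Igf2, the second ligand and an imprinted growth factor of fetal life, did not pass on either diet. On low iodine it read -2.52, -2.65, -2.83 and -1.64 in Glis3KO2, against -3.06, -2.85, -3.00 and -3.04 in WT. Glis3KO2 replicate 4 was far above the rest, and the genotypes did not overlap, although the gap between the nearest arrays was narrow. The difference was 0.57 ± 0.27 (SE; adjusted p = 0.169), and the second Igf2 probe gave -0.03 ± 0.32 (adjusted p = 0.966) with overlapping arrays. Igf2 on the normal diet averaged 0.16 ± 0.42 in Glis3KO2 and -0.07 ± 0.35 in WT (SD, n = 5 each; adjusted p = 0.755).

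Igf1r, the signalling receptor, was higher in Glis3KO2 thyroids on low iodine. Its brightest probe read 1.53, 2.01, 1.98 and 2.12 in Glis3KO2, against 1.10, 0.86, 1.08 and 1.18 in WT. Every Glis3KO2 array was above every WT array. The mean was 1.91 ± 0.26 in Glis3KO2 and 1.05 ± 0.14 in WT (SD, n = 4 each), a difference of 0.86 ± 0.18 (SE), or 1.81-fold (adjusted p = 0.00381). Slides 4 and 5 gave 0.85 and 0.87, and without the bright WT array the difference was 0.79 (adjusted p = 0.0128).

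The other Igf1r probes differed in the same direction without passing. One read 2.36, 2.80, 3.00 and 3.20 in Glis3KO2 and 2.32, 2.18, 2.30 and 2.10 in WT, a difference of 0.61 ± 0.27 (SE; adjusted p = 0.154) with no overlap. The other read 1.08, 2.34, 2.04 and 1.65 in Glis3KO2 and 1.08, 0.72, 1.27 and 1.33 in WT, a difference of 0.68 ± 0.25 (SE; adjusted p = 0.0809). There Glis3KO2 replicate 1 lay inside the WT range, and the 3 other Glis3KO2 arrays lay above it. Without scaling of the arrays, the brightest probe's difference was 0.60 and did not pass (adjusted p = 0.164).

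Igf1r on the normal diet read 1.74, 1.16, 1.77, 1.18 and 1.69 in Glis3KO2, against 1.34, 0.98, 1.09, 1.31 and 1.20 in WT. Of the Glis3KO2 arrays 3 lay above all WT arrays and 2 within the WT range. The difference was 0.32 ± 0.16 (SE) with a 95% interval of -0.01 to 0.66 (adjusted p = 0.398). The interaction of 0.53 ± 0.24 (SE) did not pass (adjusted p = 0.318), so the differences on the 2 diets were not shown to differ.

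Igf2r, the receptor that clears IGF2, averaged 4.30 ± 0.35 in Glis3KO2 and 4.39 ± 0.25 in WT on low iodine (SD, n = 4 each). The difference of -0.09 had a 95% interval of -0.54 to 0.35 (adjusted p = 0.831), and the arrays overlapped. On the normal diet the means were 2.13 ± 0.23 in Glis3KO2 and 2.05 ± 0.32 in WT (SD, n = 5 each; adjusted p = 0.915).

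**Figure D1:**
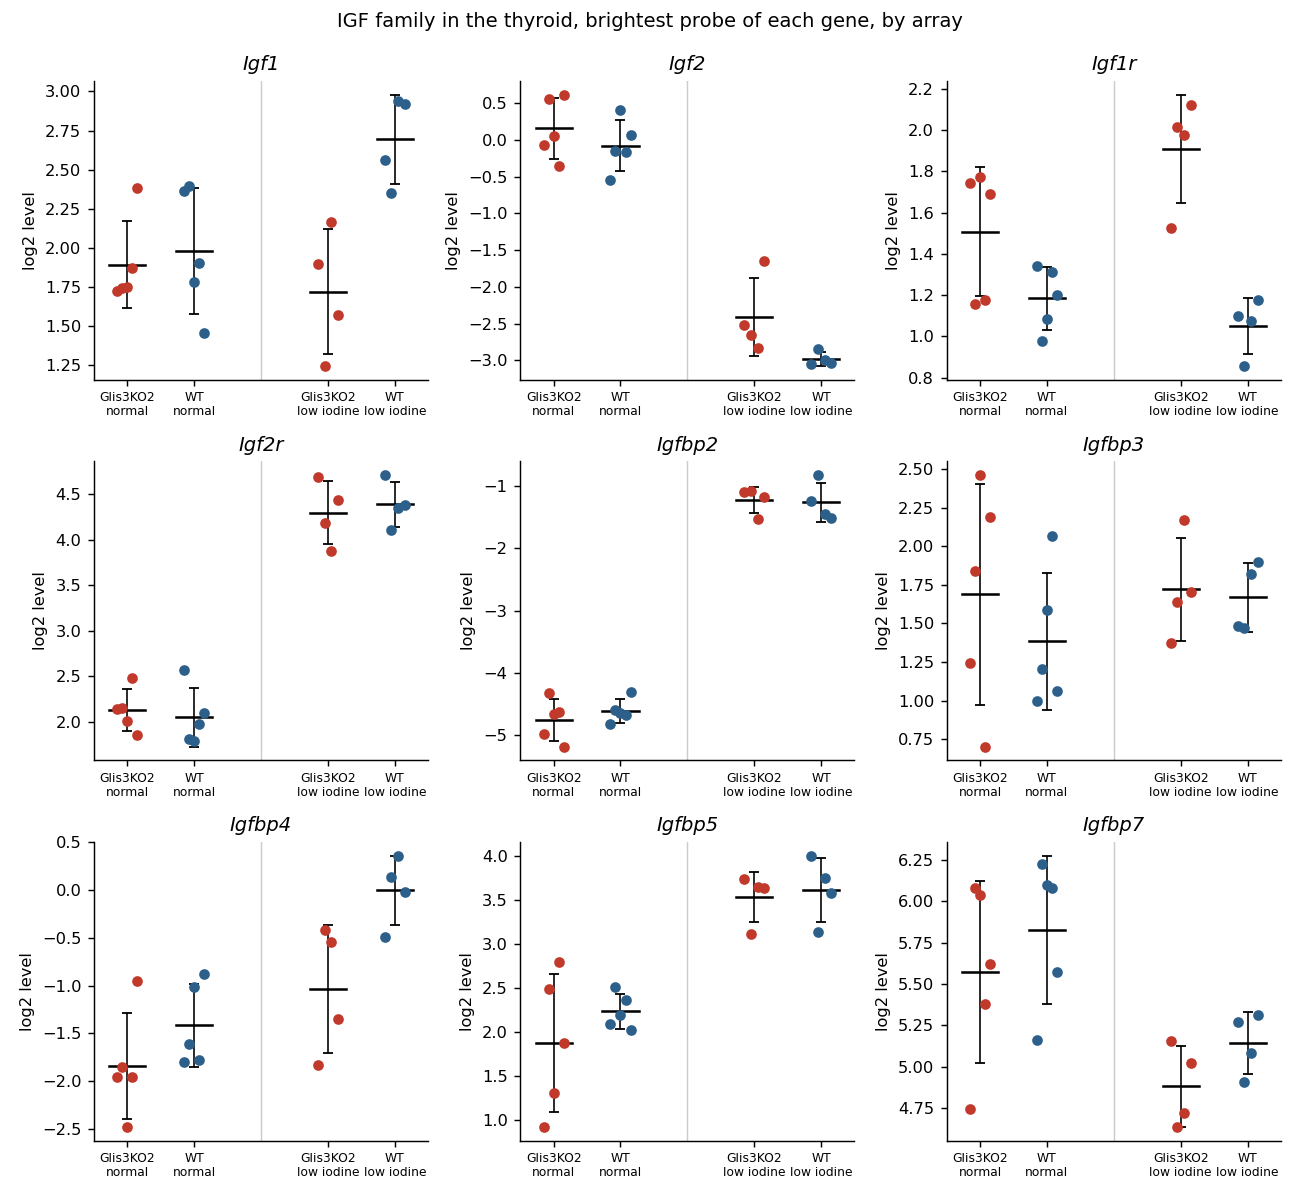
Level of each measured IGF member (log2 processed signal minus the 75th percentile of the array, brightest probe) in Glis3KO2 (red) and WT (blue) thyroids on the normal diet (left, n = 5 each) and the low-iodine diet (right, n = 4 each). Points are arrays, the long bar is the mean and whiskers are the SD; the vertical scale differs between genes. On low iodine the Igf1 arrays of Glis3KO2 lie between 1.24 and 2.17, below the WT arrays, and the Igf1r arrays lie between 1.53 and 2.12, above them.

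Among the binding proteins none passed the test, and Igfbp4 came nearest. Igfbp4, which binds both ligands and is cut by the metalloprotease PAPP-A, read -1.83, -0.42, -0.54 and -1.35 in Glis3KO2 on low iodine, against -0.49, 0.13, 0.36 and -0.02 in WT. The genotypes overlapped at 1 point, since Glis3KO2 replicate 2 lay just above WT replicate 1. The difference was -1.03 ± 0.35 (SE), or 2.04-fold lower (adjusted p = 0.0572), and it was -1.41 on slide 4 and -0.65 on slide 5. With slide as a block the same difference passed (adjusted p = 0.0367), and it also passed in 8 of the other 29 alternatives run. The second Igfbp4 probe gave -0.65 ± 0.33 (SE; adjusted p = 0.22). Igfbp4 on the normal diet averaged -1.84 ± 0.55 in Glis3KO2 and -1.42 ± 0.44 in WT (SD, n = 5 each; adjusted p = 0.635).

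Igfbp5, a binding protein held by extracellular matrix, averaged 3.53 ± 0.29 in Glis3KO2 and 3.61 ± 0.36 in WT on low iodine (SD, n = 4 each; adjusted p = 0.905). Its second probe read -1.04, 0.51, 0.96 and 0.29 in Glis3KO2, against 1.02, 0.67, 1.65 and 0.97 in WT. Glis3KO2 replicate 1 was the lowest of these by far, and the difference of -0.90 ± 0.44 (SE) did not pass (adjusted p = 0.2). The 2 probes of Igfbp5 thus gave differences of -0.08 and -0.90. The brighter probe on the normal diet averaged 1.88 ± 0.78 in Glis3KO2 and 2.23 ± 0.20 in WT (SD, n = 5 each; adjusted p = 0.682), and the Glis3KO2 arrays, from 0.92 to 2.79, extended past the WT arrays on both sides.

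Igfbp3, the main carrier of IGF in serum, averaged 1.72 ± 0.33 in Glis3KO2 and 1.67 ± 0.22 in WT on low iodine (SD, n = 4 each). The 95% interval of that difference ran from -0.65 to 0.75 (adjusted p = 0.946). In mice on the normal diet Igfbp3 averaged 1.69 ± 0.71 in Glis3KO2 and 1.38 ± 0.44 in WT (SD, n = 5 each; adjusted p = 0.743).

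Igfbp2, a binding protein with preference for IGF2, had the only member probe that was not well above background on all 18 arrays: it missed 1 Glis3KO2 array of the normal diet. It averaged -1.22 ± 0.21 in Glis3KO2 and -1.26 ± 0.31 in WT on low iodine (SD, n = 4 each), and the difference of 0.04 had a 95% interval of -0.38 to 0.46 (adjusted p = 0.933). On the normal diet the means were -4.76 ± 0.33 in Glis3KO2 and -4.61 ± 0.19 in WT (SD, n = 5 each; adjusted p = 0.809).

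Igfbp7, a relative of the binding proteins with low affinity for IGF, averaged 4.88 ± 0.24 in Glis3KO2 and 5.14 ± 0.19 in WT on low iodine (SD, n = 4 each; adjusted p = 0.622). In mice on the normal diet Igfbp7 averaged 5.57 ± 0.55 in Glis3KO2 and 5.83 ± 0.45 in WT (SD, n = 5 each; adjusted p = 0.744). The difference was -0.26 on both diets, and the arrays of the genotypes overlapped.

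Set against all genes, the members' counts were as follows. On low iodine 2 of 9 members (22.2%) passed, 1 in each direction, while 15% of all 17928 genes passed (7.81% higher, 7.18% lower). The genotypes did not overlap for Igf1, Igf2 and Igf1r, 3 of 9 members (33.3%; Igf2 and Igf1r higher, Igf1 lower), against 19.7% of all genes (10.6% higher, 9.1% lower). The members' differences ran from -1.03 to 0.86 with a median of -0.08, and the median of all genes was -0.02. For the normal diet 0 of 9 members passed limma's test, against 1.39% of all genes (0.513% higher, 0.876% lower), and for none did the genotypes fail to overlap, against 3.52% (1.89% higher, 1.63% lower). No member reached an unadjusted p under 0.05 there, while 13.2% of all genes did, and the members' differences ran from -0.42 to 0.32 with a median of -0.09 (all genes 0.05). None of the 9 members passed for the interaction, where 1.22% of all genes passed (0.357% higher, 0.865% lower). There 2 members (22.2%), Igf1 and Igf1r, had an unadjusted limma p under 0.05, against 14.3% of all genes. On low iodine 4 members (44.4%) had one, against 28.2% of all genes. With 9 genes, these shares describe the members and set nothing apart.

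**Figure D2:**
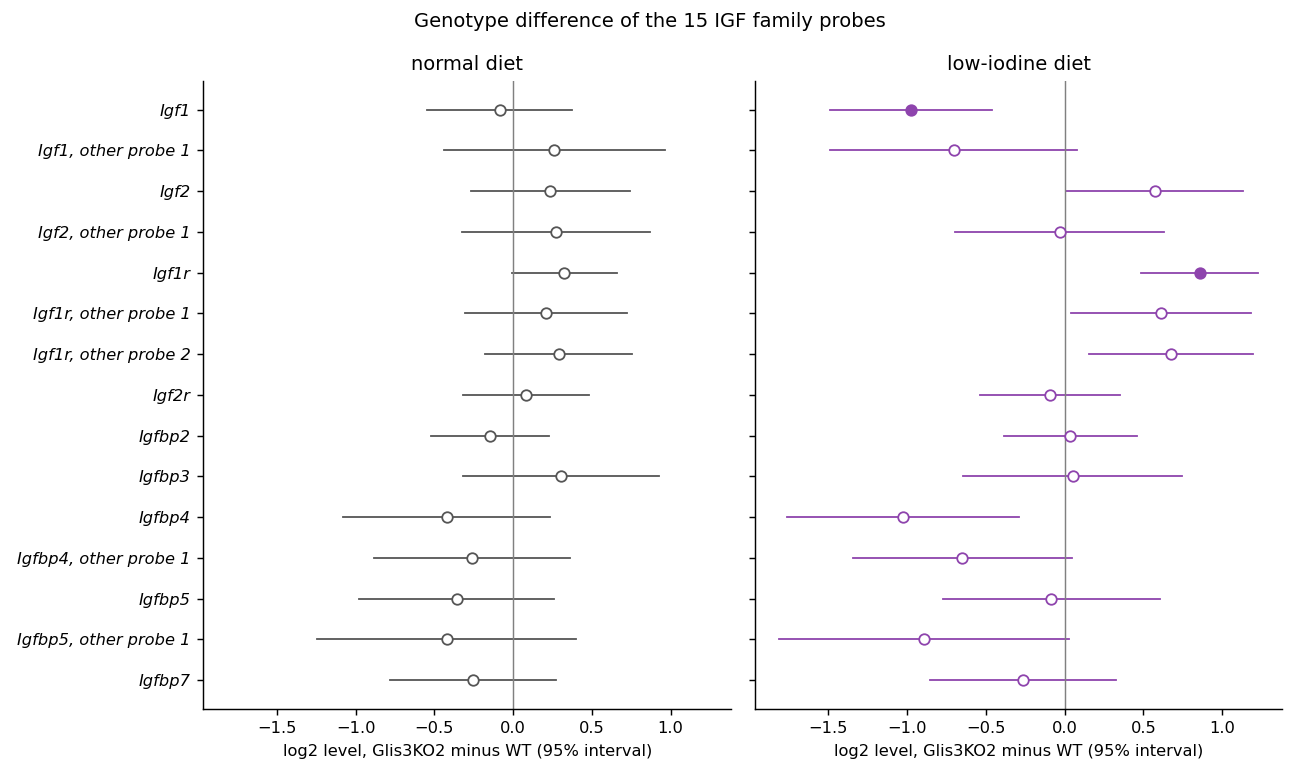
Difference in log2 level, Glis3KO2 minus WT, of the 15 IGF family probes on the normal diet (left, 5 arrays each) and the low-iodine diet (right, 4 arrays each), with 95% intervals. Each gene's brightest probe is listed first; filled points have an adjusted p under 0.05. On low iodine only the brightest probes of Igf1 (-0.97) and Igf1r (0.86) are filled, and the other probes of these genes lie on the same side of 0.

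Markers of other cell types moved between the genotypes on low iodine together with Igf1, which stromal cells and macrophages are known to make. Among all genes 7.18% were lower and 7.81% higher there, and 0.876% were lower and 0.513% higher on the normal diet. On low iodine 5 of 10 fibroblast markers were lower and 1, Dcn, was higher in Glis3KO2. The mean level of these markers was -0.63 to 0.20 on the Glis3KO2 arrays against 1.24 to 1.84 on the WT arrays. Of 9 endothelial markers 4 were lower, with a mean level of 1.05 to 1.30 in Glis3KO2 against 1.61 to 1.97 in WT. Of 9 pericyte and smooth muscle markers 2 were lower, with a mean level of 0.77 to 1.12 in Glis3KO2 against 1.50 to 1.86 in WT. Of 9 macrophage markers none was lower and 1, Cd163, was higher, with a mean level of -0.82 to -0.10 in Glis3KO2 against -0.33 to 0.19 in WT. All measured markers of these 4 lists (fibroblast, endothelial, pericyte and macrophage) were well above background on every array. Among the 10 fibroblast markers 4 were lower on the normal diet as well, with a mean level of 0.42 to 2.17 in Glis3KO2 against 2.22 to 2.80 in WT, and Igf1 did not pass there. Of 6 measured markers of airway epithelium and cartilage, tissues next to the thyroid, 3 (Foxj1, Col2a1 and Acan) were lower on low iodine, with a mean level of -2.54 to -1.28 in Glis3KO2 against -1.53 to 0.33 in WT, and 1 was lower on the normal diet. Of 5 thymic epithelial markers 4 were lower on the normal diet, with a mean level of -4.14 to -0.63 in Glis3KO2 against -2.51 to 2.07 in WT. The part of these cell types and tissues in the Igf1 difference was not tested.

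Genes of cell division, a process that IGF1R signalling promotes, were lower in Glis3KO2 thyroids. This held for 10 of 10 on low iodine (7.18% of all genes) and 9 of 10 on the normal diet (0.876%). On low iodine the mean level of the cell division genes was -4.30 to -4.15 in Glis3KO2 against 0.16 to 0.72 in WT. Cdk1 was well above background on 0 of the 4 Glis3KO2 arrays and on all 4 WT arrays, so the size of this gap is uncertain. Beside the higher Igf1r, 3 of 7 markers of C cells, the calcitonin cells of the thyroid, were higher on low iodine, against 7.81% of all genes. The mean level of the C cell markers was 1.38 to 1.86 in Glis3KO2 against 0.79 to 1.06 in WT. Of the 7 thyroid follicular markers, Nkx2-1 was higher and Slc5a5, the iodide transporter, was lower on low iodine. Their mean level there was 2.69 to 3.33 in Glis3KO2 against 3.14 to 3.47 in WT. On the normal diet 2 of the 7 were higher and 0 lower (0.513% and 0.876% of all genes). Their mean level there was 3.40 to 3.96 in Glis3KO2 against 2.92 to 3.54 in WT. The part of these genes and cells in the Igf1r difference was not tested.

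The genes nearest to the called members by profile were found among 14828 other genes, as the smallest mean absolute difference of log2 level over the 18 arrays after each gene was centred within each diet. For Igf1 they were Pigq, an enzyme subunit of membrane anchor synthesis, at 0.19, and Lmf2, a lipase maturation factor, at 0.21, where Igf1 itself deviated from its diet means by 0.36 on average. For Igf1r they were Abhd14b, a hydrolase, and Scap, the escort protein of the sterol regulatory factors, both at 0.11, where Igf1r deviated by 0.32. These are descriptions over arrays that share slides and genotypes.

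Downstream of the receptors, 23 of 24 listed genes of IGF receptor signalling were measured, and on low iodine 4 were higher and 0 lower in Glis3KO2. In both directions together that count is near the 15% of all genes that passed there, 7.81% higher and 7.18% lower. Pik3r2, a regulatory subunit of phosphatidylinositol 3-kinase, averaged 0.25 ± 0.27 in Glis3KO2 and -0.75 ± 0.28 in WT (SD, n = 4 each), a 1.99-fold difference (adjusted p = 0.000601). Grb14, an adaptor that inhibits the insulin receptor, averaged 1.64 ± 0.72 in Glis3KO2 and 0.66 ± 0.11 in WT, a 1.98-fold difference (adjusted p = 0.0158). The receptor Insr, which pairs with Igf1r in hybrid receptors, was 1.69-fold higher, at -0.12 ± 0.45 in Glis3KO2 and -0.87 ± 0.24 in WT (adjusted p = 0.0181). Foxo1, a transcription factor that Akt keeps out of the nucleus, was 1.59-fold higher, at 0.71 ± 0.04 in Glis3KO2 and 0.04 ± 0.23 in WT (adjusted p = 0.0195). The substrate Irs1 did not pass, with a difference of 0.76 (adjusted p = 0.0531), and the median of the list was 0.06 against -0.02 for all genes. Of these calls Insr was lost without Glis3KO2 replicate 3 (adjusted p = 0.0544) or WT replicate 2 (0.0569), Foxo1 without WT replicate 3 (0.0686) and Grb14 without Glis3KO2 replicate 4 (0.0512). Over all 30 alternatives Insr was lost in 5 (adjusted p up to 0.319), Foxo1 in 3 (up to 0.395) and Grb14 in 3 (up to 0.134). Pik3r2 passed in all 30.

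Of the genes that carry, cut or release the binding protein complexes, 11 of 13 were measured, with 0 higher and 2 lower on low iodine. In both directions together this is near the 15% of all genes (7.81% higher, 7.18% lower). The median difference of the list was -0.50. Adam12, a metalloprotease known in human cells to cut IGFBP3 and IGFBP5, averaged -5.29 ± 1.76 in Glis3KO2 and -1.17 ± 0.33 in WT (SD, n = 4 each) and was lower in Glis3KO2 (adjusted p = 0.000474). It was well above background on 2 of the 4 Glis3KO2 arrays and on 4 WT arrays, and on no array of the normal diet, so the size of its difference is uncertain. That size ran from -4.72 to -1.74 on the log2 scale over the 29 alternatives run for it, nearest 0 with normexp background correction, and Adam12 passed in all of them. Htra3, a secreted serine protease whose N-terminal region resembles the binding proteins, averaged 1.47 ± 0.44 in Glis3KO2 and 2.36 ± 0.17 in WT. It was 1.85-fold lower (adjusted p = 0.0226). The call was lost without any one of Glis3KO2 replicates 2 and 3 and WT replicates 1 and 3 (adjusted p from 0.0515 to 0.0673). Over all 30 alternatives Htra3 was lost in 6, with an adjusted p up to 0.128. The growth hormone receptor Ghr, through which Igf1 is induced in liver, differed by 0.23 (adjusted p = 0.674). Stc1, a secreted inhibitor of PAPP-A, did not pass, at -0.85 (adjusted p = 0.0635), and Pappa differed by 0.49 (adjusted p = 0.397).

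Among the Igf2 mRNA binding proteins and imprinted growth genes, 9 of 10 were measured, with 3 higher and 1 lower, where 7.81% of all genes were higher and 7.18% lower, and a median difference of 0.47. Cdkn1c, an imprinted inhibitor of cyclin-dependent kinases, averaged -0.11 ± 0.19 in Glis3KO2 and -1.18 ± 0.20 in WT (SD, n = 4 each), 2.09-fold higher (adjusted p = 0.00266). Igf2bp2, which binds the Igf2 transcript, averaged 1.80 ± 0.52 in Glis3KO2 and 0.96 ± 0.25 in WT, 1.79-fold higher (adjusted p = 0.0372). Dlk1 and Meg3 are reciprocally imprinted neighbours, and their differences had opposite signs. Dlk1 averaged -4.51 ± 0.28 in Glis3KO2 and -2.88 ± 0.29 in WT, 3.09-fold lower (adjusted p = 0.00369; a log2 difference of -0.62 with normexp against -1.63 here), while Meg3 averaged 1.03 ± 0.56 in Glis3KO2 and -0.34 ± 0.23 in WT, 2.57-fold higher (adjusted p = 0.0487). The Meg3 call was lost in 20 of 30 alternatives, and the Igf2bp2 call in 9 of 30.

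All 11 genes of proteins with an N-terminal domain like that of the binding proteins were measured, with 0 higher and 2 lower. In both directions together this is near the 15% of all genes (7.81% higher, 7.18% lower). The median difference of the list was -0.20. Ccn5 averaged -3.60 ± 1.20 in Glis3KO2 and -0.80 ± 0.59 in WT (SD, n = 4 each), 6.94-fold lower (adjusted p = 0.000967), and its log2 difference of -2.80 was -1.40 with normexp. It was well above background on 3 of the 4 Glis3KO2 arrays. Ccn3 averaged -1.32 ± 0.16 in Glis3KO2 and 0.16 ± 0.23 in WT, 2.79-fold lower (adjusted p = 0.000197). Both encode matricellular proteins, which modulate how cells meet the matrix. The related Ccn1 and Ccn2 did not pass, at -0.89 (adjusted p = 0.089) and -0.36 (adjusted p = 0.64).

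For the normal diet 0 of the 54 measured genes of the 4 lists passed limma's test, against 1.39% of all genes. An unadjusted p under 0.05 was found for 8 (14.8%), against 13.2% of all genes. For the interaction 2 of the 54 passed, where 1.22% of all genes did (0.357% higher, 0.865% lower). They were Pik3r2 at 0.91 (adjusted p = 0.0489), lost in 22 of 29 alternatives, and Adam12 (adjusted p = 0.0179). No size is given for Adam12, and its p is not read as a result. Both rest on normal-diet arrays that were not well above background. Some genes passed in alternatives alone: on the normal diet Htra3 in 5 of 30 and Cdkn1c in 2 of 30, and for the interaction Ccn5 in 5, Ccn3 in 4 and Dlk1 in 3 of 29.

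**Figure D3:**
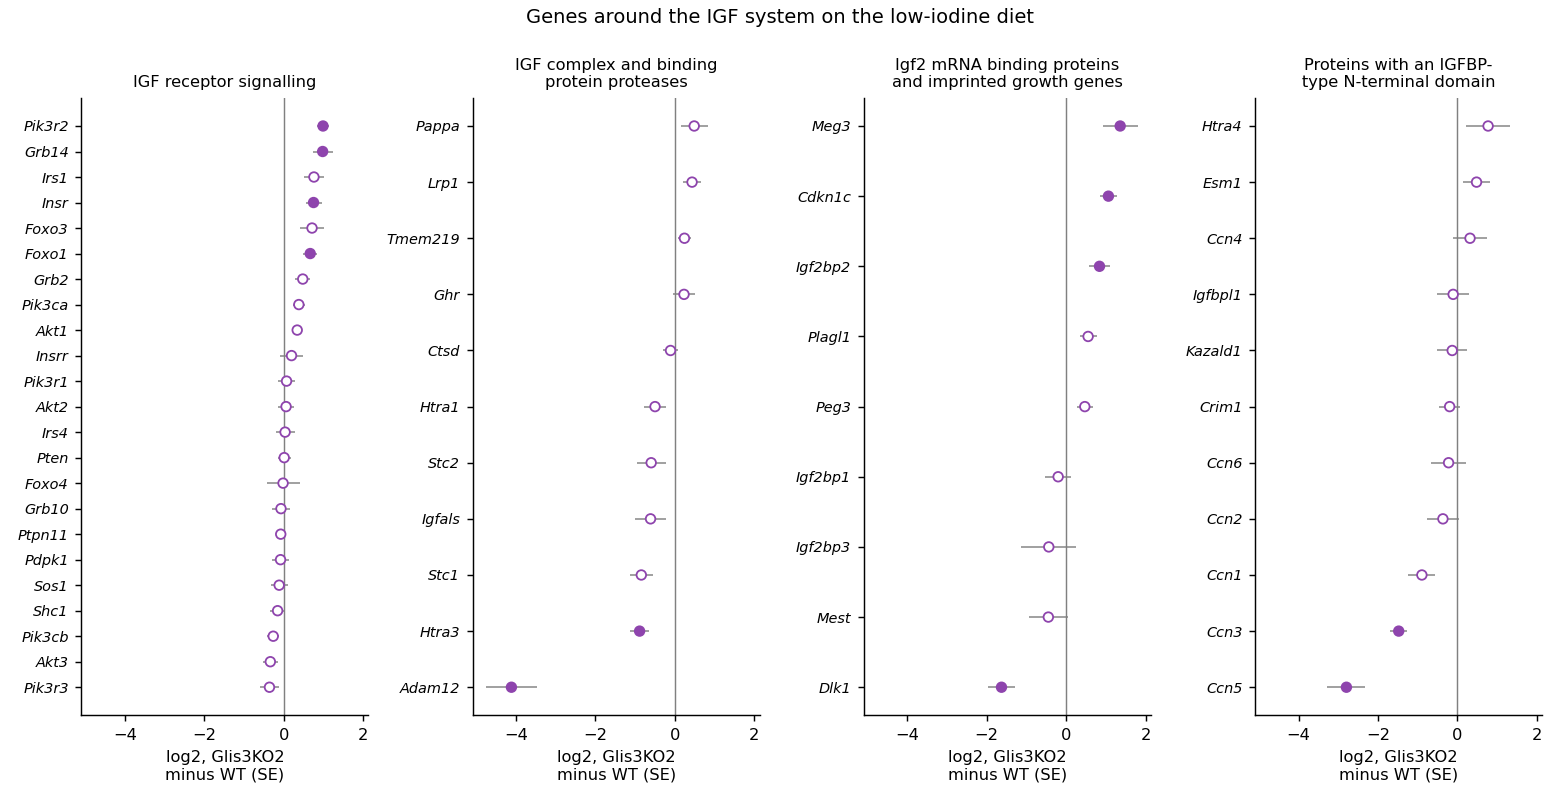
Difference in log2 level, Glis3KO2 minus WT, on the low-iodine diet (n = 4 arrays each) for the measured genes of 4 lists around the IGF system, with SE. Filled points have an adjusted p under 0.05: 4 of 23, 2 of 11, 4 of 9 and 2 of 11 genes from left to right. Adam12 is drawn at its fitted value, with 2 of 4 Glis3KO2 arrays not well above background.

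Between the diets, most members differed as most genes did. In Glis3KO2 thyroids 7 of 9 members passed between low iodine and the normal diet (5 higher, 2 lower), against 74.4% of all genes (37.5% higher, 36.9% lower), and in WT thyroids also 7 of 9 (5 higher, 2 lower), against 75.9% (39.4% higher, 36.5% lower). These shares are near those of all genes. Among the brightest probes, Igfbp2 was higher by the most, 3.54 in Glis3KO2 and 3.35 in WT. On the normal diet Igfbp2 was dim, at -4.76 in Glis3KO2, with 4 of 5 arrays well above background, and -4.61 in WT. The size of its diet difference is therefore uncertain. Over 28 alternatives it ran from 1.92 to 3.65 in Glis3KO2 and from 2.06 to 3.44 in WT. Igf2 was lower on the low-iodine arrays, by 2.57 on the log2 scale in Glis3KO2 and by 2.91 in WT. Igf2r was higher by 2.17 in Glis3KO2 and by 2.34 in WT, and Igfbp3 did not pass in either, at 0.03 and 0.29. Tissue markers also differed between the array sets. For 8 markers of brown and white fat, 6 were lower and 1 higher in Glis3KO2, and 7 lower and 1 higher in WT. For 5 thymic epithelial markers, 1 was lower and 2 higher in Glis3KO2, and 3 lower and 1 higher in WT. For 8 skeletal muscle markers, 3 were lower in Glis3KO2 and 0 passed in WT, and 0 passed between genotypes on either diet. Their mean level varied widely within groups. It ran from -4.04 to 5.89 in Glis3KO2 and -3.24 to 4.37 in WT on the normal diet. On low iodine it ran from -2.98 to 2.24 in Glis3KO2 and -2.83 to 3.13 in WT. The part of tissue content in the diet differences was not tested.

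Probes of the same gene gave different answers here. The 3 Igf1r probes differed between diets by 0.40, 2.31 and 4.34 in Glis3KO2, and by -0.13, 1.90 and 3.95 in WT. The second Igf2 probe differed by -0.80 in Glis3KO2 and -0.50 in WT, where the first gave the values above. The 2 probes of Igfbp4 gave 0.81 and -0.41 in Glis3KO2, and 1.41 and -0.02 in WT. By its brightest probe Igf1 did not pass in Glis3KO2 (-0.17, adjusted p = 0.507) and was higher on low iodine in WT (0.71, adjusted p = 0.01), and its second probe passed in neither. The size of a diet difference therefore depends on the probe read, and the diet values are given as descriptions.

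**Figure D4:**
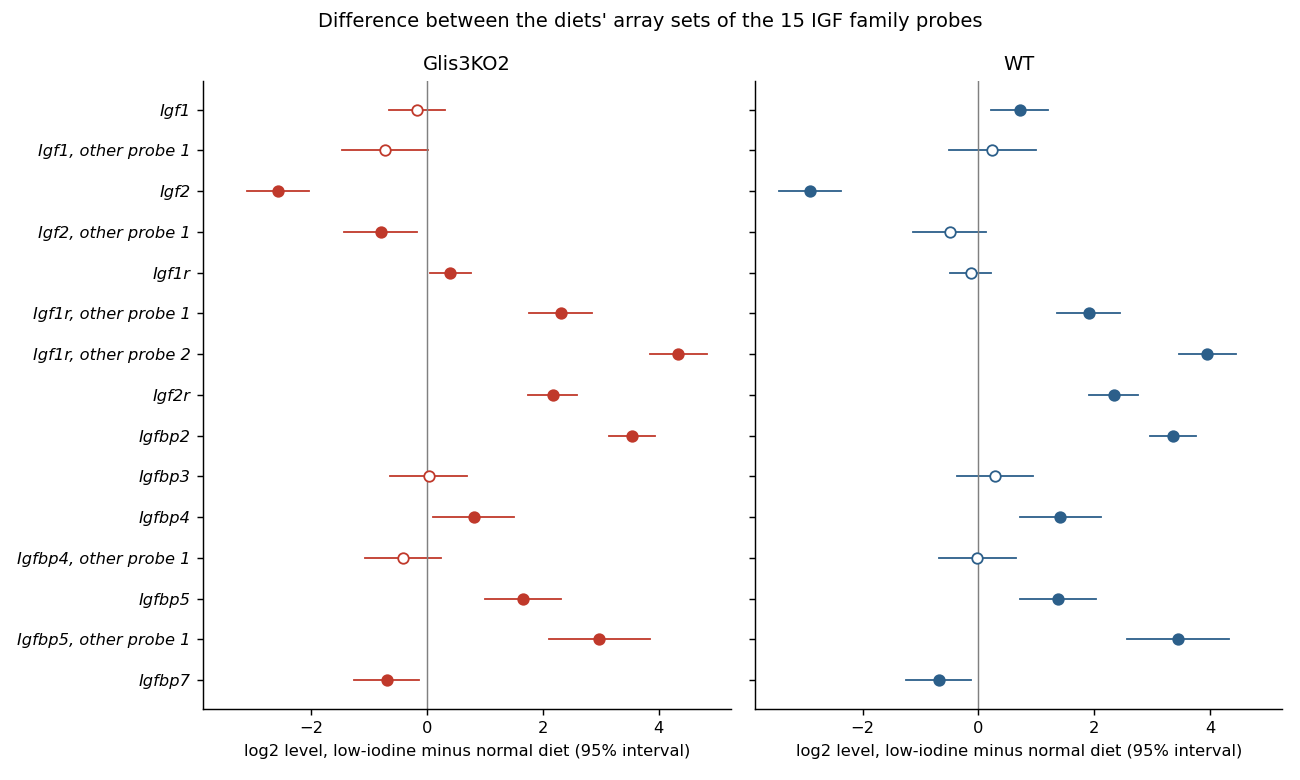
Difference in log2 level, low-iodine minus normal diet, of the 15 IGF family probes in Glis3KO2 (left, 4 against 5 arrays) and WT (right, 4 against 5 arrays), with 95% intervals; filled points have an adjusted p under 0.05. Diet coincides with array set. The 3 Igf1r probes spread from 0.40 to 4.34 in Glis3KO2 and from -0.13 to 3.95 in WT.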

How the data were processed

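Gene expression was measured in 18 thyroid samples on single-colour Agilent arrays. Per the labels' protocols, 50 ng of total RNA was amplified and 5 ug of the product labelled with Cy3. Images were quantified by Agilent Feature Extraction version 12, per the submitters' processing notes, in release 12.0.0.7 (normal diet) and 12.0.3.1 (low iodine), per the file headers. The deposited value used is the processed signal, which is an intensity, linear and already background-subtracted by the authors' software, and the deposited value table held the same intensity (ratio 1).

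Control and outlier spots were removed, log2 was taken and the 75th percentile of each array subtracted, and spots of a probe were averaged (82 probes with no usable spot on some array were left out). Through accessions, 28223 of 41174 probes (68.5%) matched 1 gene of the GRCm38.p6 RefSeq table. Kept were the 26518 named probes that passed the software's background test on 4 or more arrays, and the brightest stood for each of 17928 genes. All 15 member probes passed. All 18 arrays entered 1 model with a mean for each of the 4 groups (limma 3.58.1 in R 4.3.3), with Benjamini-Hochberg adjustment and a threshold of 0.05. Other probes of members were tested in the same model over all kept probes.

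The members, the gene lists and the rule for named genes were chosen with earlier results of these data known. Named are all members, up to 4 called genes per pathway list with the smallest p, 2 nearest profiles per called member, and markers. Irs1, Stc1, Pappa, Ghr, Ccn1 and Ccn2 were named after their values were seen. In simulated data with 17928 genes and independent noise per gene, 77 genes had a true log2 change of 1, 60 of 2 and 63 of 3. Of the 77, 53.2% were recovered on low iodine and 46.8% on the normal diet. The adjustment depends on how many genes change, and 2687 were called on low iodine. These shares therefore do not give the recovery on the real arrays. The number of arrays limits the precision.

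Alternatives changed background correction, scaling, filter, probe choice, weights, variance trend, slide and replicate blocks, arrays in the fit, and each array in turn. The planned correction on mean signals was run on median signals instead, since the files given here hold no mean signal. Sequences are RefSeq's.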

Additional observations from a re-analysis of the deposited data

Results flagged for a closer look

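One value stood out within its group by Dixon's gap criterion, among 36 groups of 4 or 5 arrays tested over the 9 members, where chance gives about 1 in 20. On the normal diet, Igf1 in Glis3KO2 replicate 5 was at a log2 level of 2.38, and the 4 other Glis3KO2 arrays lay between 1.72 and 1.87. The gap was 0.775 of the range of the group, above the critical value of 0.71 for 5 samples. The second Igf1 probe was highest on the same array, at 1.09 against -1.10 to -0.21 on the other Glis3KO2 arrays. Without that array the genotype difference of Igf1 on the normal diet was -0.21 (adjusted p = 0.762 with limma), and its call was the same with and without it.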

How the results depend on the processing

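On the normal diet and for the interaction 0 members passed in every alternative, and on low iodine the count was 3 with a replicate block and 3 with a slide block, quantile normalization, normexp or a variance trend, with Igfbp4 as the addition (adjusted p = 0.0224 with the replicate block). It was 1 with median scaling (Igf1 lost), 1 without scaling (Igf1r lost) and 1 with the mean of all probes (Igf1 lost), and 2 to 3 with each array left out in turn. Igfbp4 passed without Glis3KO2 normal-diet replicate 5 (adjusted p = 0.0382), Glis3KO2 low-iodine replicates 2 (0.0343) and 3 (0.0434) or WT low-iodine replicate 1 (0.0468). The other probes gave 1 call on low iodine, an Igf1r probe, with normexp, with array weights, with the slide block and without Glis3KO2 low-iodine replicate 1, so 0 to 1 over left-out arrays, and 0 elsewhere.

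Of the lists on low iodine, receptor signalling gave 1 call without scaling and 3 to 6 over left-out arrays. The binding protein complexes gave 1 with median scaling, 1 with the filter at 9 arrays, and 1 to 3 over left-out arrays (1 without Glis3KO2 replicate 2 or 3, or WT replicate 1 or 3, where Htra3 had an adjusted p of 0.0515 to 0.0673). The imprinted genes gave 1 without scaling, 2 with array weights and 2 to 4 over left-out arrays (2 without Glis3KO2 replicate 1 or 4, or WT replicate 2, 3 or 4, where Igf2bp2 had an adjusted p of 0.0743 to 0.124). The list with the binding protein domain gave 2 throughout left-out arrays. The Pik3r2 interaction was lost in 22 of 29 alternatives. Htra3 on the normal diet passed in 5 alternatives, among them the replicate block (-0.79, adjusted p = 0.0413), no scaling, array weights, a variance trend and without WT replicate 5, and Cdkn1c passed with array weights and without Glis3KO2 replicate 4.

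Members called between diets numbered 6 to 7 in WT over left-out arrays and 4 to 7 in Glis3KO2, with 4 without normal-diet replicate 2, low-iodine replicate 2 or low-iodine replicate 3. Among diet differences that passed here or in the alternative, signs turned for Igfbp7 with quantile normalization (0.26 in Glis3KO2, 0.54 in WT), Igf1 in WT with median scaling (-0.27), Igf1r in WT with the mean of all probes (1.91), and in Glis3KO2 for Igf1r with median scaling (-0.41) or no scaling (-0.042) and for Igfbp4 with median scaling (-0.0032). Diet differences that passed in neither also turned: Igfbp3 in 7 alternatives in Glis3KO2 and 2 in WT, Igf1 in Glis3KO2 in 1 and Igf1r in WT in 1 (quantile normalization, 0.09). The cause was not tested.

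Scaling moved the median genotype difference of all genes on low iodine to 0.13 with median scaling and -0.29 without scaling, against -0.02 here, and the share of lower calls to 86.5% without scaling, against 47.9%. Between diets, median scaling moved that median to -0.80 in Glis3KO2 and -0.91 in WT. For the normal diet the share of lower calls was 63.1%, against 90.6% without scaling and 73.1% with median scaling. Whether equal replicate numbers pair samples is not given in the labels. Same-number correlations were -0.04 to 0.32 on the normal diet and 0.03 to 0.13 on low iodine. On these diets 3 of 10 and 5 of 8 arrays correlated best with their own number. These values do not settle the pairing, and the replicate block was run as an alternative. The planned normexp on mean signals was not run, and normexp on median signals was chosen after seeing the data. Calls over all genes on low iodine numbered 2687, against 1642 with median scaling and 1673 with the arrays of that diet alone. On the normal diet they numbered 249, against 992 with array weights, 401 with a variance trend, 160 with the replicate block and 3 with the arrays of that diet alone, and 123 to 675 over left-out arrays. For the interaction they numbered 219, against 708 with quantile normalization, 516 with array weights, 336 with a variance trend, 131 without scaling and 90 with median scaling.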
